A study of Caenorhabditis elegans with 6 samples.

Results

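A total of 825 windows of about 1 kb carried more reads for histone H3 lysine 27 acetylation (H3K27ac) than for either form of histone H3 lysine 9 methylation (H3K9me) in body wall muscle of *Caenorhabditis elegans* L3 larvae. They were 0.843% of the 97811 windows that had enough reads to be compared. A window was counted when the H3K27ac libraries of both genotypes each exceeded both the H3K9me2 and the H3K9me3 library by more than 0.75 on a log2 scale. The smallest of these 4 differences is called the margin of a window. All values were first scaled to the average library total of 16977530 reads (scaled reads) and a pseudocount of 8 was added before log2 was taken. The table held 100293 windows of the ce10 assembly, of which 100279 lay off the mitochondrial genome. A further 2468 of those averaged fewer than 20 scaled reads over the 4 mark libraries and were not considered, so all 825 windows passed this minimum by definition.

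The study mapped histone marks by ChIC-seq (sequencing after antibody-directed cleavage of chromatin), in which an antibody draws protein A fused to micrococcal nuclease (MNase) to its mark and the freed DNA is sequenced. Muscle cells were sorted from L3 larvae by red fluorescent protein under the muscle-specific *myo-3* promoter, and stained with Hoechst to gate fixed cells. Samples labelled N2 (Bristol) served as wild type (WT), with libraries for H3K9me2, H3K9me3 and H3K27ac and an MNase control that received no antibody. The paper names *gwIs4*, an integrated reporter array, for the muscle red fluorescence, and the sample titles do not mention it. The *met-2(n4256) III* mutant had an H3K27ac library and an MNase control, so each of the 6 groups had 1 library and the spread between replicates is unknown for every difference given. H3K9me2 and H3K9me3 were measured in WT alone, and the margin of *met-2* H3K27ac was therefore taken against WT H3K9me.

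As background, H3K27ac is laid down at promoters and enhancers in use, whereas H3K9me2 and H3K9me3 mark heterochromatin, which is packed away from the transcription machinery. In *C. elegans* most H3K9me lies on the distal arms of the autosomes, which are rich in repeats, and the central regions hold many of the broadly expressed genes. MET-2 is a SETDB1-like methyltransferase acting on H3K9.

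The label "active" was set against the same 4 mark libraries that the rule used, so the counts below describe the choice and do not test the label. H3K27ac exceeded the median of all kept windows in 627 of the 825 in WT (76.0%) and in 631 in *met-2* (76.5%). The other windows entered through low H3K9me rather than through a high H3K27ac level. In all, 457 windows (55.4%) had both H3K27ac libraries above and both H3K9me libraries below the medians, a pattern found in 4.80% of all kept windows. Another 138 (16.7%) had both H3K27ac libraries above with H3K9me not low in both, against 37.2% of all kept windows. Low H3K9me in both without high H3K27ac in both was found in 230 (27.9%), against 28.7% of all kept windows. None fell outside these patterns, where 29.3% of all kept windows did. The rule fixed this, since a window with an H3K9me library at or above its median needs both H3K27ac libraries above theirs. Neither transcription nor accessibility was measured in these libraries, genes of the ce10 build were not used here, and muscle marker genes could therefore not be looked up. The windows are accordingly called H3K27ac-dominated. Because the 4 mark libraries chose them, every mark level at these windows is a description. The MNase controls, the position of the windows and the windows next to them were not used by the rule. They are not independent of it, since reads rise together across libraries and the H3K9me level, which the rule used, varies with position.

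The median H3K27ac-dominated window held 218 scaled reads of WT H3K27ac (5th to 95th percentile 97.2 to 387) and 222 of *met-2* H3K27ac (111 to 376). It held 88.3 of H3K9me2 (29.9 to 170) and 108 of H3K9me3 (47.3 to 190). In these libraries, all used by the rule, the medians differed from the other kept windows more for H3K9me than for H3K27ac. Relative to the other 96986 kept windows, the median log2 value differed by 0.40 in the WT H3K27ac library and by 0.41 in the mutant one, against -0.67 for H3K9me2 and -0.52 for H3K9me3. H3K9me3 was the higher, and so the closer, of the H3K9me libraries in 664 windows (80.5%) and H3K9me2 in 161. In 59.0% of all kept windows H3K9me3 was the higher of them. The lower H3K27ac library was WT in 423 (51.3%, close to the 52.0% of all kept windows) and *met-2* in 402.

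**Figure D1:**
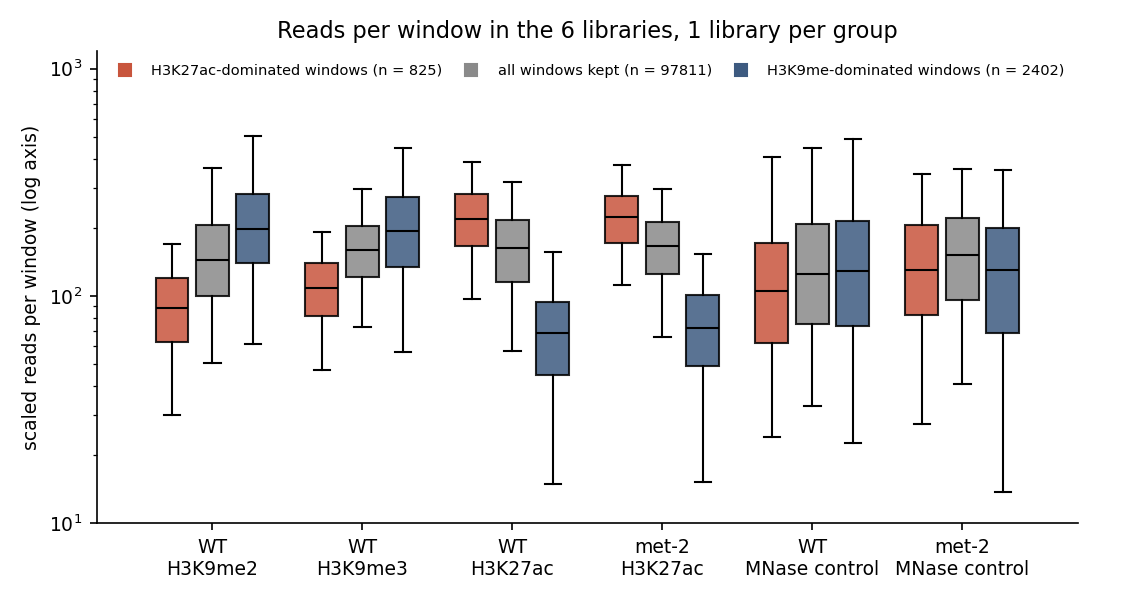
Scaled reads per window (log axis) in each of the 6 libraries, with boxes from the 25th to the 75th percentile, a line at the median and whiskers at the 5th and 95th percentiles over windows. H3K27ac-dominated windows (n = 825) had median values of 218 and 222 for H3K27ac and of 88.3 and 108 for H3K9me, and H3K9me-dominated windows (n = 2402), defined the opposite way, are drawn beside all 97811 kept windows.

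In WT the H3K27ac library placed 1.12% of its reads outside the mitochondrial genome in the 825 windows (95% Wilson interval 1.11 to 1.12), or 152381 reads. The *met-2* H3K27ac library also placed 1.12% there (1.11 to 1.12). The share was 0.456% (0.453 to 0.458) for H3K9me2 and 0.555% (0.553 to 0.558) for H3K9me3. The controls, which were not used in the choice, placed 0.703% (0.698 to 0.708) of the WT reads and 0.768% (0.757 to 0.779) of the *met-2* reads in these windows. The H3K27ac shares stood above both control shares and the H3K9me shares below them. The rule asked for H3K27ac above H3K9me in the same mark libraries, so this order follows in part from the choice and is a description. These intervals cover counting error only, and the smallest share that 3 reads allow ran from 1.05e-05% for H3K9me3 to 0.000121% for the *met-2* control.

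Most windows cleared the margin by little. The margin had a median of 0.84, and it was at most 0.85 in 437 windows (53.0%). It passed 1 in 113 windows and 1.25 in 11, and reached 1.56. Intervals from the read counts of the compared libraries lay above the margin of 0.75 for all 4 differences in 85 windows, so for most windows counting error alone spans the threshold. No gap separated the class from its neighbours in value. The 3 windows just inside the threshold, at IV 4191085 to 4192084, III 8692871 to 8693870 and IV 8408046 to 8409045, had a margin of 0.75 and WT H3K27ac reads of 35, 122 and 151. The 3 just outside, at II 709432 to 710431, X 12431711 to 12432710 and I 14134870 to 14135869, also had a margin of 0.75 when rounded and WT H3K27ac reads of 140, 279 and 130. Windows with a margin above 0.5 numbered 4120, and those with a margin above 0 numbered 30580 (31.3%).

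Few of the windows with the most H3K27ac were in the class, though a larger share than among all kept windows. Among the 979 windows with the highest WT H3K27ac (the top 1%), 31 were H3K27ac-dominated (3.17%, 95% Wilson interval 2.24 to 4.46). The class made up 0.843% of all kept windows. In that top 1% the median of every library was high, at 2.89 times the median of all kept windows for H3K27ac in WT and 2.38 times in *met-2*, 2.05 times for H3K9me2 and 2.10 times for H3K9me3. The controls were as high, at 2.42 times in WT and 2.41 times in *met-2*. When kept windows were ranked by WT H3K27ac in 10 equal parts, H3K27ac-dominated windows made up 0.235% of the lowest part and 2.29% of the highest. The rule asked for WT H3K27ac above H3K9me, so the larger shares at high WT H3K27ac follow in part from the choice. Across the 825 windows the libraries rose and fell together. The Spearman correlation was 0.94 between WT and *met-2* H3K27ac, 0.94 between WT H3K27ac and H3K9me3, and 0.82 between WT H3K27ac and H3K9me2. The controls followed less closely, at 0.52 between WT H3K27ac and the WT control and 0.39 between the controls. These windows share their libraries and were picked on 4 of them, so the correlations are descriptions, and the rule itself ties the mark libraries together.

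The window with the largest margin, 1.56 (counting interval 1.20 to 1.92), lay in the centre of chromosome II at 10814338 to 10815337. It held 98 reads of H3K9me2, 107 of H3K9me3, 178 of H3K27ac in WT and 314 of H3K27ac in *met-2*, with 19 and 7 reads in the WT and *met-2* controls. After scaling these were 69.8, 63.7, 221, 227, 32.6 and 48.0, so both H3K27ac values stood far above every other library. H3K27ac exceeded the control by 2.50 (1.81 to 3.18) in WT and by 2.07 in *met-2* on the log2 scale, and each H3K9me library also exceeded the WT control, by 0.82 for H3K9me3 and 0.94 for H3K9me2.

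The next by margin, in the centre of chromosome V at 9276083 to 9277082, had a margin of 1.48 (1.24 to 1.72). The H3K9me2 library had 92 reads there and the H3K9me3 library 203, while H3K27ac had 419 in WT and 486 in the mutant, against 188 and 29 in the WT and *met-2* controls. The controls here were high, at 323 and 199 scaled reads, above both H3K9me values of 65.5 and 121. H3K27ac was 0.68 (0.43 to 0.92) above the control in WT and 0.80 above it in *met-2*. The window at I 7425933 to 7426932 also had a margin of 1.48, with 139 scaled reads of H3K9me2, 130 of H3K9me3, 439 of WT H3K27ac and 403 of *met-2* H3K27ac, and 139 and 226 in the WT and *met-2* controls. Both H3K27ac values exceeded both controls, H3K9me2 lay between the controls and H3K9me3 lay below both.

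A large margin did not always come with a high value over the control. At I 5630949 to 5631948 the margin was 1.36 (1.15 to 1.58), with 402 scaled reads of WT H3K27ac and 401 of *met-2* H3K27ac against 115 of H3K9me2 and 151 of H3K9me3. The WT control held 260 reads there, or 447 after scaling, and WT H3K27ac stood at -0.15 (-0.39 to 0.08) relative to it. The *met-2* control held 18 reads, 123 after scaling, and *met-2* H3K27ac stood 1.64 above it. The window at III 12689834 to 12690833, with a margin of 1.33, had 287 scaled reads of WT H3K27ac against 309 in the WT control, a difference of -0.10 (-0.39 to 0.18). Its *met-2* H3K27ac value was 0.57 above the *met-2* control. In these windows the WT control alone reached the level of H3K27ac.

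The remaining windows among the 8 with the largest margin lay at I 13490876 to 13491875 (1.44), II 708432 to 709431 (1.43) and I 8843919 to 8844918 (1.31). The window on II is next to one of the 3 windows that fell just outside the threshold. All 3 had more WT H3K27ac than either control, at 198, 260 and 274 scaled reads against 44.7, 72.2 and 70.5 in the WT control and 89.2, 192 and 75.4 in the *met-2* control. Chromosomes IV and X had their largest margins at IV 1775108 to 1776107 (1.23) and X 9561737 to 9562736 (1.26). The IV window had 236 scaled reads of WT H3K27ac against 32.6 in the WT control, and the X window 353 against 134. In *met-2*, H3K27ac was 254 against 68.6 in the *met-2* control at the IV window. At the X window it was 299 against 274, a log2 difference of 0.12 (-0.35 to 0.59).

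**Figure D2:**
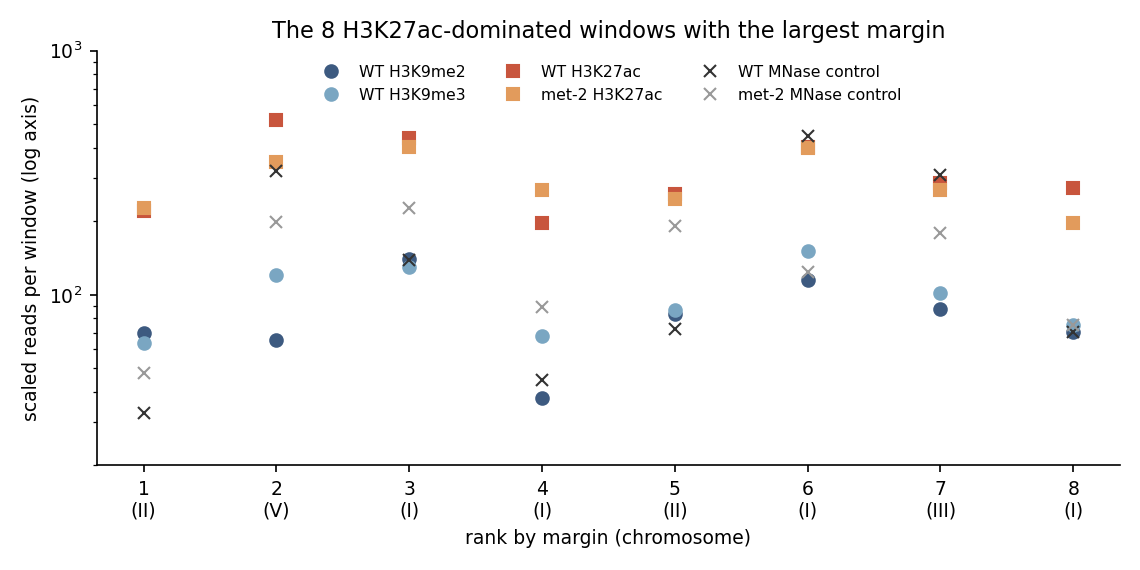
Scaled reads per window (log axis) in the 6 libraries, 1 point per library, for the 8 H3K27ac-dominated windows with the largest margin, ordered by margin with their chromosome. Both H3K27ac points stand above both H3K9me points in every window, as the rule required, and the WT control reaches the H3K27ac points in windows 6 and 7, at 447 and 309 scaled reads.

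Within the class, the window with the most WT H3K27ac, at III 9789861 to 9790860, had 636 H3K27ac reads in WT with 824 in the mutant, or 791 and 596 after scaling. H3K9me2 and H3K9me3 stood at 189 and 242 scaled reads and the controls at 175 and 384. H3K27ac was 2.12 (1.82 to 2.43) above the control in WT and 0.62 above it in *met-2*. Those at III 2178932 to 2179931 and II 12048327 to 12049326 followed with 620 and 610 scaled reads, and margins of 0.87 and 0.77. At III 2178932 to 2179931 the *met-2* control held 672 scaled reads, above WT H3K27ac, and *met-2* H3K27ac was 0.10 (-0.20 to 0.40) above that control. At II 12048327 to 12049326 H3K27ac was 1.41 above the control in WT and 1.08 above it in *met-2*.

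The MNase controls were lower at H3K27ac-dominated windows than in the other kept windows, which in the *met-2* control was not particular to this class. The median was 105 scaled reads in the WT control (95% interval of the median 96.2 to 112), against 125 in the other kept windows, a log2 difference of -0.24. In the *met-2* control it was 130 (123 to 144) against 151, a difference of -0.20. At H3K9me-dominated windows, defined the opposite way, the median was also 130 in the *met-2* control, and 129 in the WT control. These intervals treat windows as independent and cover no difference between libraries. A control value above the median of all kept windows was found at 328 of the 825 windows (39.8%) in WT and 339 (41.1%) in *met-2*. The controls were shallow here, with a median of 61 reads per window in WT and 19 in *met-2*. Among the 2108 windows that passed with WT H3K27ac alone in the rule, the difference from the other kept windows was 0 in both controls. Control and mark reads rise together across windows, and their part in the choice of windows with low H3K9me was not tested.

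H3K27ac was next set against the controls, calling a window enriched above 0.5 on the log2 scale. In WT 590 of the 825 windows were enriched over the WT control (71.5%, 95% Wilson interval 68.3 to 74.5), where 42.1% of all kept windows were. In *met-2* 479 were enriched over the *met-2* control (58.1%, 54.7 to 61.4), where 31.0% of all kept windows were. The median value was 0.99 (0.92 to 1.06) in WT and 0.65 (0.58 to 0.73) in *met-2*, against 0.31 and 0.12 over all kept windows. The rule favoured windows with high H3K27ac, and the higher shares are given as a description. The lower share in *met-2* went with its control. With the controls exchanged, 474 windows were enriched in WT (57.5%), where 30.1% of all kept windows were, and 584 in *met-2* (70.8%), where 43.7% were.

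In both genotypes, each over its own control, 349 windows were enriched (42.3%, 39.0 to 45.7), where 16.0% of all kept windows were. Enrichment over both controls in both genotypes held for 318 (38.5%), where 12.5% of all kept windows met it. At the other end, 105 windows (12.7%) were enriched in neither genotype, where 42.9% of all kept windows were. H3K27ac lay below the control in both genotypes in 25 (3.03%), where 19.8% of all kept windows met this. H3K9me2 at the 825 windows lay below the WT control, with a median of -0.24 (-0.32 to -0.16) against 0.19 over all kept windows. It was under -0.5 in 331 (40.1%), where 22.9% of all kept windows were. H3K9me3 was close to the WT control, with a median of 0.03 (-0.05 to 0.12) against 0.32, and was under -0.5 in 234 (28.4%), where 21.0% of all kept windows were. H3K9me3 still exceeded the WT control by more than 0.5 in 247 windows (29.9%), where 42.6% of all kept windows did. Over the *met-2* control the median of H3K9me3 was -0.31 (-0.40 to -0.24) against 0.09, and 133 windows (16.1%) exceeded it by more than 0.5, where 29.5% of all kept windows did.

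**Figure D3:**
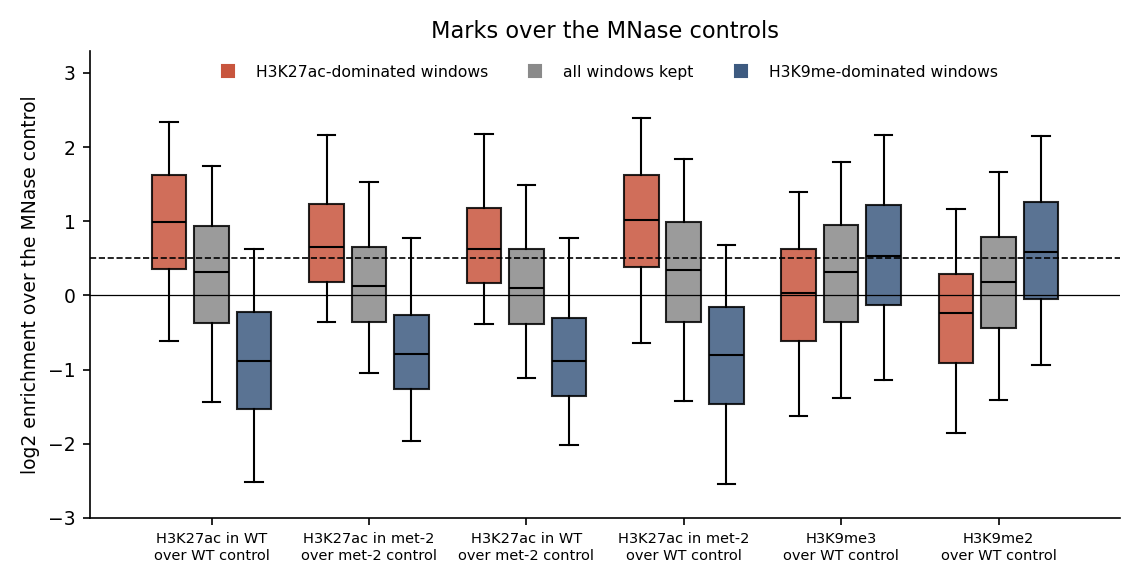
Log2 value of each mark over an MNase control, with boxes from the 25th to the 75th percentile, a line at the median and whiskers at the 5th and 95th percentiles over windows, for H3K27ac-dominated, all kept and H3K9me-dominated windows. The dashed line is the threshold of 0.5, and the median of H3K27ac-dominated windows was 0.99 in WT and 0.65 in *met-2*, against 0.03 for H3K9me3 and -0.24 for H3K9me2.

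Windows chosen on the H3K27ac library of one genotype were then read in the other. The H3K9me libraries are shared by both readings. On WT H3K27ac alone 2108 windows passed the margin. Their *met-2* H3K27ac, which was not used, had a median of 215 scaled reads against 166 over all kept windows, and stood above that median in 1612 windows (76.5%). It exceeded both H3K9me libraries in 2103 of them (99.8%, against 41.2% of all kept windows) and did so by more than 0.75 in 825 (39.1%, against 2.30%). On *met-2* H3K27ac alone 2251 windows passed. Their WT H3K27ac had a median of 165 scaled reads, close to the 163 over all kept windows, and stood above that median in 1147 (51.0%). It exceeded both H3K9me libraries in 2125 (94.4%, against 39.4%). The choice required low H3K9me in the same libraries, so a share above H3K9me says little about the unused H3K27ac library, and its own level is the value that the choice did not use. That level stood above the median of all kept windows for the windows chosen on WT and close to it for those chosen on *met-2*. Loss of MET-2 and the change of library cannot be told apart in these readings.

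H3K27ac at the 825 windows differed little between *met-2* and WT. The median difference, *met-2* minus WT, was 0.003 on the log2 scale (95% interval of the median -0.0065 to 0.019), with 5th and 95th percentiles of -0.27 and 0.35. Above 0.5 there were 11 windows (1.33%), where 7.06% of all kept windows were. Below -0.5 there was 1 (0.121%), where 2.97% of all kept windows were. The rule asked for high H3K27ac in both libraries and so removes windows that differ strongly, and nothing is read from these counts. The difference was close to 0 on every chromosome, with medians from -0.03 on V to 0.02 on III.

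Among windows averaging at least 100 scaled H3K27ac reads, the largest rise in *met-2* was at IV 12627007 to 12628006, from 67 reads in WT to 200 in *met-2*, or 83.3 to 145 scaled reads. The difference was 0.74 (counting interval 0.34 to 1.14). Rises of 0.72 (0.42 to 1.01) and 0.64 (0.28 to 1.00) followed at V 11283064 to 11284063, from 155 to 260 scaled reads, and at I 2381979 to 2382978, from 103 to 166. The largest fall, -0.56 (-0.75 to -0.37), was at the window V 9276083 to 9277082 described above, from 521 to 351 scaled reads. Falls of -0.45 at I 8843919 to 8844918 (274 to 197 scaled reads) and -0.45 at II 11038336 to 11039335 (357 to 260) came next. At the II window H3K27ac did not stand above the controls, at 0.03 (-0.23 to 0.29) in WT and 0.07 in *met-2*. These were the extremes of 825 windows, with no replicate check.

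H3K27ac-dominated windows mostly stood alone, yet they had a neighbour in the class more often than all kept windows did. They formed 781 single windows and 22 adjacent pairs, and no longer stretch. A neighbour in the class was present for 44 of the 825 (5.33%, 95% Wilson interval 4.00 to 7.08), against 1.66% of all kept windows. For comparison, the 2402 windows where both H3K27ac libraries lay below both H3K9me libraries by more than 0.75 (H3K9me-dominated windows) had a neighbour of their own kind in 1210 cases (50.4%, 48.4 to 52.4), against 4.08% of all kept windows, and formed stretches of up to 12. These windows are more numerous, so the shares of the classes are each to be read against their own share of kept windows. Among the 113 windows with a margin above 1, 0 had a neighbour that also passed 1 (95% Wilson interval 0 to 3.29), against 0.230% of all kept windows. The median gap between consecutive stretches of H3K27ac-dominated windows was 69 kb over 797 gaps, 47 gaps were at most 5 kb, and 1 window of the 825 (0.121%) lay beside an H3K9me-dominated window, against 4.08% of all kept windows.

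Of the 22 adjacent pairs, the 5 with the highest mean margin lay at X 16485673 to 16487672 (1.03), I 4311962 to 4313960 (1.03), X 7684755 to 7686754 (1.01), IV 1774108 to 1776107 (1.00) and III 7574882 to 7576881 (0.99). The X pair with a mean margin of 1.01 held 321 reads of H3K9me2, 509 of H3K9me3, 527 of WT H3K27ac and 938 of *met-2* H3K27ac over its 2 windows, with 65 and 63 reads in the WT and *met-2* controls. After scaling, WT H3K27ac was 655 against 112 in the WT control, and *met-2* H3K27ac was 678 against 432 in the *met-2* control. The III pair had 646 scaled reads of WT H3K27ac and 942 in the WT control, so its summed H3K27ac did not exceed that control. Its windows differed, with WT H3K27ac at 1.21 relative to the WT control in the first and -1.12 in the second, on the log2 scale. The IV pair contains the window with the largest margin of that chromosome.

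The flanking windows were examined next. The windows 1 kb to either side that were not themselves in the class (n = 1579) had a median margin of 0.05, against 0.84 in the class and -0.24 over all kept windows. The value in the class was set by the rule and those of the flanks were not, so the step between them follows in part from the choice, and the flanks are read against all kept windows. At 2 kb the median was -0.03 and at 10 kb -0.13, so it remained above that of all kept windows over the whole distance examined. A margin above 0 was found in 55.1% of the windows at 1 kb and 37.7% at 10 kb, against 31.3% of all kept windows.

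In the flanks H3K27ac was above all kept windows, with median values at 1 kb of 186 scaled reads in WT and 187 in *met-2* (0.19 and 0.16 above all kept windows on the log2 scale) and at 10 kb of 178 and 179 (0.12 and 0.10 above). H3K9me2 was 88.3 in the class, 136 at 1 kb and 145 at 2 kb, where it differed from the median of all kept windows by 0.01 on the log2 scale. H3K9me3 went from 108 to 147 and 156 and stayed slightly low, at -0.03 relative to all kept windows at 10 kb. Among the flanks, both H3K27ac libraries were thus above all kept windows at each distance from 1 to 10 kb, while H3K9me2 was lower by 0.08 at 1 kb. The WT control went from 105 in the class to 132 at 1 kb, which was 0.07 above all kept windows, and stayed between 0.05 and 0.16 above them out to 10 kb. The *met-2* control lay within 0.06 of all kept windows from 1 to 10 kb. H3K27ac was enriched over the control in both genotypes in 20.7% of the windows at 1 kb, against 42.3% in the class and 16.0% of all kept windows. Around H3K9me-dominated windows the margin was -1.69 at the window, -1.07 at 1 kb and still -0.85 at 10 kb.

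**Figure D4:**
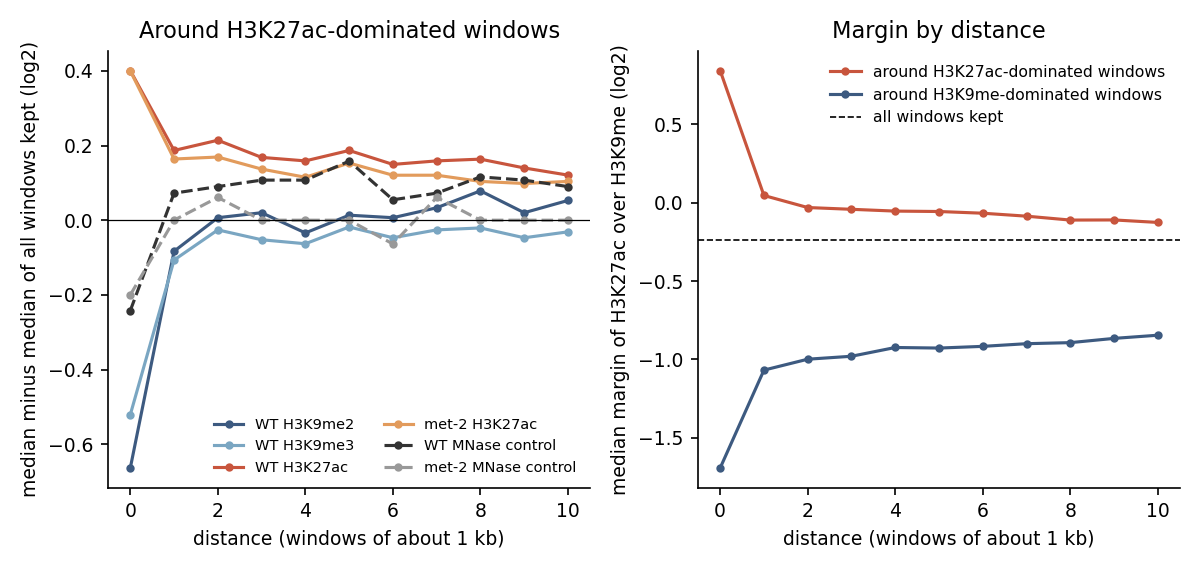
Left, the median log2 value of each library around H3K27ac-dominated windows minus the median of all kept windows, against distance in windows of about 1 kb, with class windows left out of the flanks. Right, the median margin of H3K27ac over H3K9me around H3K27ac-dominated windows fell from 0.84 to 0.05 at 1 kb and -0.13 at 10 kb, and around H3K9me-dominated windows rose from -1.69 to -0.85, with the dashed line at -0.24 for all kept windows.

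H3K27ac-dominated windows were found on all 6 chromosomes but unequally. Chromosome I held 190 (23.0%, 95% Wilson interval 20.3 to 26.0) with 15.1% of the kept windows, chromosome III 153 (18.5%, 16.0 to 21.3) with 13.8%, and chromosome II 140 (17.0%, 14.6 to 19.7) with 15.3%. Chromosome X held 155 (18.8%, 16.3 to 21.6) with 17.9%, and chromosome IV 123 (14.9%, 12.6 to 17.5) with 17.3%. Chromosome V held 64 (7.76%, 6.12 to 9.78) with 20.6% of the kept windows. The intervals lay above the share of kept windows on I and III and below it on V, and included it on II, IV and X. The class windows of V had a median of 126 scaled reads in the WT control, against 92.8 to 108 on the other chromosomes. Their WT H3K27ac stood 0.70 above that control, against 0.94 to 1.04 elsewhere, and 35.9% were enriched in both genotypes, the lowest share of the 6 chromosomes. All kept windows of V were lowest too. Their WT H3K27ac stood 0.14 above the WT control, against 0.26 to 0.46 on the other chromosomes. Of them 11.4% were enriched in both genotypes, against 14.9% to 19.0% on the others. The median of WT H3K27ac itself, which the rule used, was 211 scaled reads on V and 209 to 223 on the others. All kept windows of V had a median margin of -0.47, the lowest of the 6 chromosomes, and V held 1393 (58.0%) of the H3K9me-dominated windows.

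Within the autosomes the windows lay towards the chromosome centres. Of 670 autosomal windows 364 were in centres (54.3%, 95% Wilson interval 50.5 to 58.1), against 38.2% of the kept autosomal windows. The share in centres was higher than that of kept windows on all 5 autosomes. It was 55.3% against 47.1% on I, 60.7% against 47.4% on II, 60.8% against 46.8% on III, 41.5% against 28.1% on IV and 46.9% against 27.6% on V. H3K9me-dominated windows showed the reverse, with 96 of 2209 in centres (4.35%, 3.57 to 5.28). The intervals treat windows as independent. The rule asks for low H3K9me, which was itself unequal between chromosomes and between arms and centres. The shares by position are therefore descriptions and not independent of the choice.

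The density of the class was highest in the centre of I, at 105 of 6944 kept windows (1.51%, 1.25 to 1.83), and of III, at 93 of 6326 (1.47%, 1.20 to 1.80). It was lowest in the right arm of V, at 9 of 6850 (0.131%, 0.0691 to 0.250), and the right arm of IV, at 12 of 5128 (0.234%, 0.134 to 0.409). The left arm of IV held 60 of 7053 (0.851%, 0.662 to 1.09), and the centre of V 30 of 5578 (0.538%, 0.377 to 0.767), which is below both arms of I. In bins of 1 Mb the median bin held 8.5 windows, and 45 of 100 bins held 10 or more. The densest was I 8000001 to 9000000 with 26 of 996 kept windows. The 4 bins without any lay on IV at 15000001 to 16000000 and on V at 1000001 to 2000000, 16000001 to 17000000 and 17000001 to 18000000. In the last of these 420 of 963 kept windows were H3K9me-dominated, and 79, 63 and 144 were in the others.

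**Figure D5:**
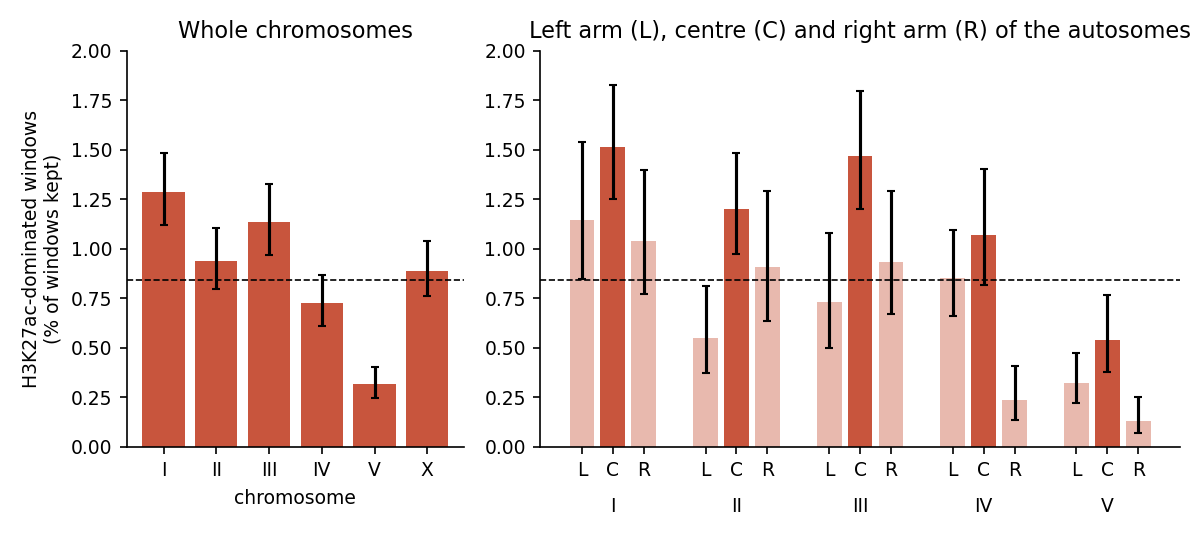
Percent of kept windows that were H3K27ac-dominated, by chromosome (left) and for the left arm (L), centre (C) and right arm (R) of each autosome (right), with 95% Wilson intervals as error bars and the dashed line at 0.843% for all kept windows. Chromosome V has the lowest share, and the share in the centre is above that of both arms on each autosome, from 0.538% on V to 1.51% on I.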

How the data were processed

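Raw read counts per window of ce10, 6 libraries in 1 table, were deposited. The authors' methods name trimming with Trimmomatic 0.39, alignment by bowtie2, deduplication with Bismark and counting of both orientations in QuasR. Whether reads with several matches were kept was not given in the sources used here, which leaves counts over repeats uncertain. The windows are wider than the tiles named in the methods. Totals ran from 2475550 reads (*met-2* control) to 28519008 (H3K9me3). Counts were scaled to the average total of 16977530 and log2 was taken of the scaled reads plus 8, as the authors did. The minimum was 20 scaled reads on average over the 4 mark libraries and the margin 0.75. Autosome arms and centres follow borders stated in the study. With 1 library per group no test was run. Intervals of single windows come from the counts of the libraries compared, without the pseudocount, and cover counting error only. Members and measures were chosen with earlier results of these data known. Windows were named by rule, as the 8 with the largest margin, the 3 with the most WT H3K27ac, the largest margin on each chromosome, the 3 largest rises and falls in *met-2* among windows averaging at least 100 scaled H3K27ac reads, the 5 longest stretches (ties by mean margin), and 3 on either side of the threshold. Python 3.11.15, pandas 2.3.3, numpy 2.4.6 and, for TMM scaling, edgeR 4.0.16 were used, and the rule was tested on simulated data. Genes and sequences of ce10 were not used here.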

Additional observations from a re-analysis of the deposited data

How the results depend on the processing

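No paired analysis was possible because the groups hold 1 library each. Of 95 recomputed values of the main results 51 stayed within the interval of the value in the report. For the number of windows, this meant within 1.5 times. All 57 recomputed margins and *met-2* minus WT differences of named windows stayed within intervals built from the H3K27ac counts alone. For margins these differ from the intervals given above, at 1.29 to 1.83 against 1.20 to 1.92 for II 10814338 to 10815337. The windows named on either side of the threshold were not recomputed. A value within its interval could still leave the class. With TMM scaling the margin at II 12048327 to 12049326 went from 0.77 to 0.74, below the threshold. The number of H3K27ac-dominated windows was 113 with a margin of 1, 4120 with a margin of 0.5, 2108 with WT H3K27ac alone in the rule and 134 with counts summed over 2 adjacent windows. It was 1075 with a pseudocount of 1, which held all 825, and 618 with TMM scaling, all of them among the 825.

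The share in autosome centres stayed above that of kept windows under every alternative, at 59.8% with at least 100 scaled reads (41.8% of kept windows), 61.4% with WT H3K27ac alone (38.2%) and 61.8% with centres set as the middle of each chromosome (50.3%). The share on X was 21.9% with a margin of 0.5 (95% Wilson interval 20.7 to 23.2), which no longer included the 17.9% of kept windows, and 22.4% with summed windows (16.2 to 30.2, with 17.8% of kept windows). The share with a neighbour in the class was 8.56% with a pseudocount of 1 (2.15% of kept windows), 18.9% with a margin of 0.5 (8.07%), 3.88% with TMM scaling (1.25%), 11.5% with WT H3K27ac alone (4.19%) and 1.49% with summed windows (0.538%). It was 0 with a margin of 1 (95% Wilson interval 0 to 3.29), which includes the 0.230% of kept windows then beside the class. The lower control levels depended on the rule. With WT H3K27ac alone the difference from other kept windows was 0 in both the WT and the *met-2* control, and with summed windows it was -0.15 in the WT control. The cause was not tested.

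WT H3K27ac was enriched over the control in 76.1% with a margin of 1, 66.8% with 0.5, 67.6% with WT H3K27ac alone, 67.2% with summed windows, 57.5% with the *met-2* control and 49.6% at a threshold of 1. TMM scaling gave 58.6%, with 31.1% of kept windows, and moved the median of all kept windows by -0.28. In *met-2* the share was 69.9% with a margin of 1, 52.1% with 0.5, 47.9% with WT H3K27ac alone, 53.0% with summed windows, 70.8% with the WT control and 34.2% at a threshold of 1. All these shares exceeded those of kept windows under the same setting. The median *met-2* minus WT difference was 0.019 with a margin of 1, -0.013 with 0.5, -0.20 with WT H3K27ac alone and -0.017 with summed windows.

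The WT H3K27ac reads in the class came to 1.41% with a pseudocount of 1, 0.170% with a margin of 1, 5.52% with 0.5, 1.05% with at least 100 scaled reads, 0.833% with TMM scaling, 1.10% without the 1% of windows highest in control, 3.22% with WT H3K27ac alone, 0.358% with summed windows and 1.04% with totals that leave out the mitochondrial genome, an alternative chosen after seeing the data that kept 767 of the 825 windows. Depth limited the controls most, at a median of 19 reads per window of the class in *met-2*.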
